A study of Mus musculus with 3 samples.

Results

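The stratified oral-type epithelial cells of the embryonic mouse palate were taken as cell barcodes with at least 500 detected genes, a unique molecular identifier (UMI, 1 captured RNA molecule) of at least 2 of the 6 genes Krt5, Krt14, Krt15, Krt6a, Krt13 and Trp63, and no UMI of Pecam1, Tyrobp, Sox10 or Gng13, which mark endothelial, myeloid, glial and sensory cells. The rule found 224 of 8107 barcodes. Stages are given as embryonic days (E). Members were 15 of 3692 barcodes in the E13.5 library, or 0.406% (exact binomial 95% interval 0.228 to 0.669), 44 of 1775 in the E14.5 library, or 2.48% (1.81 to 3.31), and 165 of 2640 in the E15.5 library, or 6.25% (5.36 to 7.24). Each library was made from palatal tissue of wild-type C57BL/6J embryos, 3 pooled per stage, as methanol-fixed single cells on the 10x Genomics platform. No group carried an altered gene or a treatment, and stage was the sole difference between the libraries in the labels. Because each stage had 1 library, no test between stages was possible. The intervals below cover counting error only, and stage cannot be told apart from library. Members were also chosen by their own expression, so levels of the 6 genes, and every contrast of members with other barcodes, are descriptions that support nothing further. Where 3 values follow each other without a stage, they are in order of stage.

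The mouth lining is a stratified epithelium. Its basal layer sits on a basement membrane, holds to it with hemidesmosomes, and carries the keratin pair Krt5 and Krt14 with the transcription factor p63, encoded by Trp63. Cells that leave this layer add desmosomes and switch to other keratins, Krt4 and Krt13 in wet mucosa and Krt1 and Krt10 in cornifying surfaces, while Krt15 is a keratin of basal cells and Krt6a a keratin of activated or suprabasal cells. In palate development the shelves rise above the tongue, meet at the midline and fuse, and the epithelium between them is lost while the oral side goes on to stratify.

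The E13.5 members stood apart from those of later stages, before any comparison is made. The deepest of the 15 barcodes held 75557 UMIs, 42.9% of all UMIs of that set, with 2 UMIs of the 6 genes. Of the 15, 9 qualified by Krt14 and Trp63 together, and Krt6a and Krt13 had no UMI. Neuronal markers made up at least 0.1% of UMIs in 7 of them, against 5 of 44 and 14 of 165 later, and Nrxn3, a synaptic adhesion gene, had 581 UMIs there, 309 of them in the deepest barcode. The median member had 3, 7 and 8 UMIs of the 6 genes, although the median depth ran the other way, at 5574, 2848 and 2047 UMIs. The members' counts summed to 176309, 170534 and 592379 UMIs, so 1 UMI stood for 5.67, 5.86 and 1.69 CPM, the usual scaling of counts by a set's total. The E13.5 barcodes thus carried few UMIs of the genes that give the set its name. Barcode sequences shared between libraries numbered 3 between E14.5 and E13.5, 1 between E15.5 and E13.5 and 1 between E15.5 and E14.5, and none belonged to a member. At E14.5 the 2 deepest members, at 19487 and 14337 UMIs, held 461 of the 706 UMIs of 9 mesenchymal markers found in the 44. The later stages were therefore also compared without these 2, an alternative chosen after seeing the data, and its values stand beside the results they change.

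**Figure D1:**
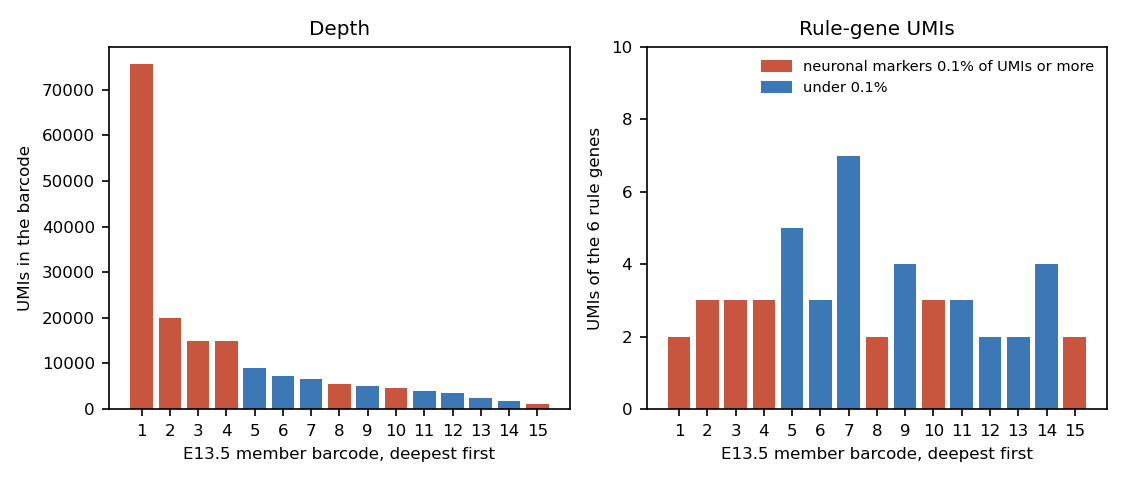
The 15 member barcodes of E13.5 in order of depth, with their total UMIs on the left and their UMIs of the 6 genes on the right. Colour marks barcodes whose neuronal markers reach 0.1% of UMIs, and the deepest, at 75557 UMIs, has 2 UMIs of the 6 genes.

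In GRCm38 coordinates (GENCODE M21), Krt5 spans chr15:101707070-101712898 and Krt6a chr15:101689910-101694307, both on the minus strand, in the type II keratin cluster. Krt13 (chr11:100117327-100121566), Krt15 (chr11:100131758-100135928) and Krt14 (chr11:100203162-100207548), all on the minus strand, lie in the type I cluster, while Trp63 spans chr16:25683763-25892102 and Krtdap chr7:30787896-30791097 on the plus strand. The 250 bases before the RefSeq transcription start are printed for the basal keratin Krt5, the mucosal keratin Krt13 and the differentiation gene Krtdap, to show 3 genes of different layers. They come from RefSeq promoter windows on GRCm38.p6, written 5′ to 3′ on the gene's strand. Of the 6 rule genes 3 matched an entry, and Krt15, Krt6a and Trp63 did not. Capitals mark matches to TATAAA or to TGANTCA, a loose form of the AP-1 motif with any base at N.
Krt5, chr15:101712906-101713155, minus strand: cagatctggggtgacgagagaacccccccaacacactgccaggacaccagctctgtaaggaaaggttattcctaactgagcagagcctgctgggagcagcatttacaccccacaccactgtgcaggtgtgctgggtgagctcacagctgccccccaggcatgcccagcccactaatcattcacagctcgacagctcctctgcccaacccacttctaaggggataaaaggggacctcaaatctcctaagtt
Krt13, chr11:100121567-100121816, minus strand: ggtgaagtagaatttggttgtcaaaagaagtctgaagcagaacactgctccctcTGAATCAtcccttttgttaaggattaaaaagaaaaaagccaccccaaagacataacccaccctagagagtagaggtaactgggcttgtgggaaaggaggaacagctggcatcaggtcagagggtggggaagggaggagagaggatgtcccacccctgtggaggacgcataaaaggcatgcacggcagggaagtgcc
Krtdap, chr7:30787655-30787904, plus strand: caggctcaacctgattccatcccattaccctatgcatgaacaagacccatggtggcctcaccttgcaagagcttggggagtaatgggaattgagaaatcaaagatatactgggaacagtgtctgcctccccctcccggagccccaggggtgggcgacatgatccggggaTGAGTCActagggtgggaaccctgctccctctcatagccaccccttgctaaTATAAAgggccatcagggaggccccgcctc

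Both strands were searched. The Krtdap window held a TATAAA starting 30 bases and an AP-1 match starting 81 bases before the start, the Krt13 window an AP-1 match at 196 bases, and the Krt5 window neither. The Krtdap match read TGAGTCA and the Krt13 match TGAATCA. Of 32841 promoter windows of the same length, 12.4% held TATAAA and 6.75% the AP-1 motif. The motifs AACNGGTT (Grainyhead) and GCCNNNGGC (AP-2), found in 1.79% and 13.7% of windows, had no match in the 3 windows, and no match overlapped another. A match is a string of letters here, not a measured binding site.

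The basal keratins and Trp63 had their lowest levels in the E13.5 members, and Krt5 and Krt15 were highest at E15.5. Krt5 had 8, 87 and 623 UMIs in 5, 33 and 141 members, a level of 45.4, 510.2 and 1052 CPM. The intervals of the 3 levels did not overlap, and E15.5 was 2.06-fold above E14.5 (1.65 to 2.61). Krt15 gave 28.4, 592 and 1057 CPM from 5, 101 and 626 UMIs, again with separate intervals. Krt14 and Trp63 differed less between the later stages. For Krt14 the levels were 102, 393 and 473 CPM, with an E15.5 to E14.5 ratio of 1.20 (0.919 to 1.60). Trp63 stood at 96.4, 281 and 290.4 CPM, a ratio of 1.03 (0.745 to 1.45). Both intervals include no difference. Without the 2 deepest E14.5 members the ratio of Krt5 was 1.80 (1.42 to 2.30), under 2-fold, and that of Krt15 was 1.43 (1.16 to 1.78). Those of Krt14, 0.994 (0.757 to 1.32), and Trp63, 0.827 (0.597 to 1.16), again had intervals that include no difference. With membership read after thinning, the log2 difference of Trp63 from E13.5 turned to -0.26 at E15.5.

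Krt6a and Krt13 came from fewer cells, and UMIs of Krt6a could be split with its near-identical copy Krt6b. Krt6a had 0, 25 and 173 UMIs in 0, 9 and 42 members, and 48 of the 173 lay in 1 barcode. Krt13 had 0 UMIs at E13.5, 3 UMIs in 2 members at E14.5 and 407 UMIs in 45 members at E15.5, levels of 0, 17.6 and 687 CPM. The ratio of E15.5 to E14.5 was 39.1 (13.3 to 190.2), a wide interval because of the 3 UMIs. The barcode richest in Krt13 held 109 of the 407 UMIs.

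**Figure D2:**
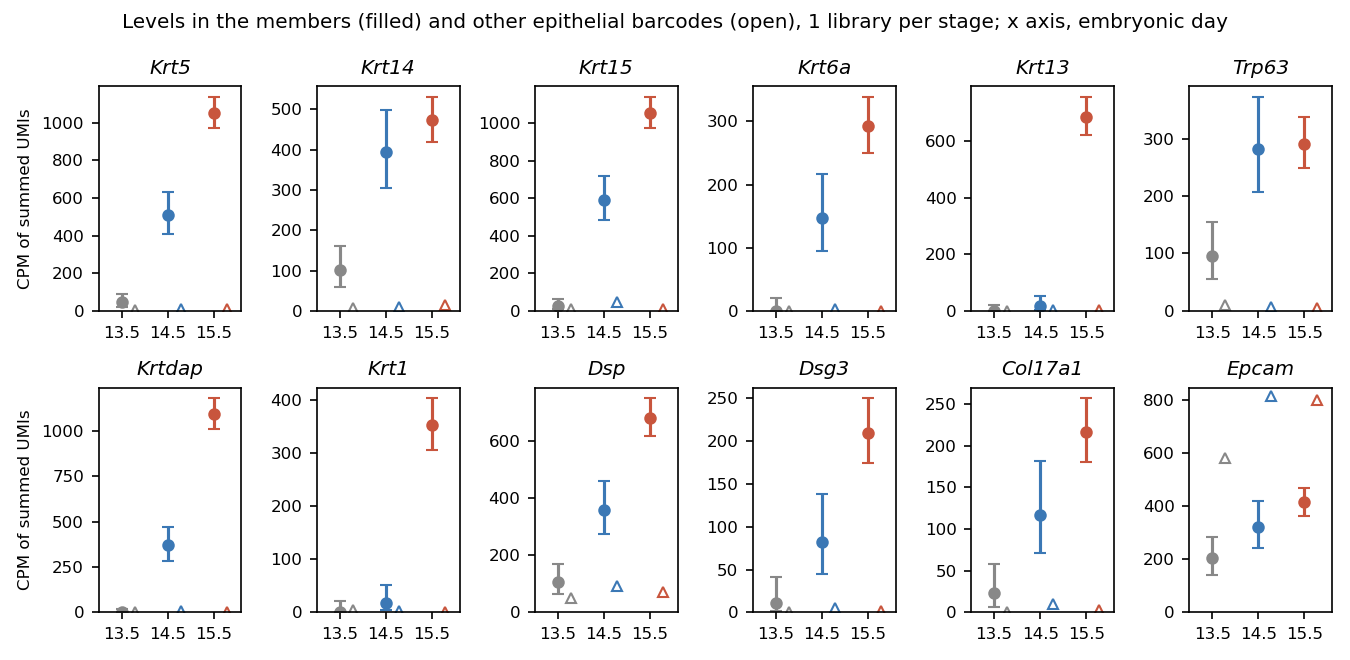
Level in CPM (y axis) by embryonic day (x axis) of the 6 rule genes and 6 others in the summed members (filled, exact Poisson 95% interval) and in the other epithelial barcodes (open triangles), 1 library per stage. Krt13, Krt1 and Krtdap are at 0 at E13.5 and highest at E15.5, and Epcam is the only gene shown with higher levels in the other epithelial barcodes at every stage.

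Detection depends on depth, so shares of cells were read after thinning every barcode to 1500 UMIs, which kept 14, 36 and 115 members. Krt5 was then seen in 14.3%, 55.6% and 68.7% of them (33.3%, 75.0% and 85.5% unthinned), Krt13 in 0%, 2.78% and 17.4% (0%, 4.55% and 27.3% unthinned). Endothelial and myeloid barcodes, which should lack these keratins, showed Krt5 in 0.935% and 0.775% and Krt13 in 0% and 0.775% at E14.5 and E15.5 after the same thinning. Those barcodes had median depths of 3265, 2607 and 2286.5 UMIs before it. Since the rule asked for UMIs of these genes, the gap between the sets is no finding.

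Most members carried more than the required genes at E15.5 and few did at E13.5. Members with exactly 2 of the 6 genes numbered 12 of 15, 14 of 44 and 51 of 165. The most frequent combinations were Krt14 with Trp63 at E13.5 (9 members), Krt5 with Krt14 and Krt15 at E14.5 (9) and Krt5 with Krt14, Krt15 and Trp63 at E15.5 (22). All 6 genes were seen in 5 members, of E15.5, whose median depth was 14412 UMIs. At the threshold, E15.5 barcodes with exactly 2 genes had 439 CPM of the desmosomal plakin Dsp and 322 CPM of Krtdap, while barcodes with exactly 1 had 70.1 and 11.7 CPM. The same values at E14.5 were 217 and 79.0 CPM inside and 173 and 80.0 CPM outside. At E13.5 they were 70.6 and 0 inside and 61.3 and 0 outside. Across the edge of the rule Dsp and Krtdap thus differed most at E15.5. The epithelial gene Epcam was lower inside the edge than outside at E13.5 (148 and 368 CPM) and E14.5 (197 and 394 CPM), and higher inside at E15.5 (578 and 155 CPM). The mesenchymal collagen Col1a1 was higher inside at E13.5 (148 and 61.3 CPM) and E14.5 (2271 and 1161 CPM), and lower inside at E15.5 (819 and 2627 CPM). At E14.5 the second deepest member held 14337 of the 50643 UMIs inside, with mesenchymal markers at 1.84% of its UMIs. Without the 2 deepest, all E14.5 members together had 50 UMIs of Col1a1, against 115 inside the edge. Most of that E14.5 value thus came from 1 barcode. At E13.5 the deepest barcode held 75557 of the 155785 UMIs inside.

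Genes that anchor basal cells to the basement membrane differed little as a group between E14.5 and E15.5. In the list of 16 anchorage genes, 14 reached 50 CPM in either later stage, none was at least 2-fold apart between E15.5 and E14.5, and the median log2 ratio (20 CPM added) was 0.12, or -0.03 without the 2 deepest E14.5 members. Over all 4909 genes of at least 50 CPM, 3.34% were at least 2-fold higher at E15.5, 3.54% at least 2-fold lower, and the median was -0.02. Col17a1, the transmembrane collagen of hemidesmosomes, was at 22.7, 117 and 216 CPM, in 4, 13 and 65 members, with an E15.5 to E14.5 ratio of 1.84 (1.14 to 3.12). Without those 2 members it was 1.48 (0.918 to 2.50), an interval that includes no difference. Its partner Itgb4, the β4 integrin, was at 11.3, 99.7 and 96.2 CPM. The α6 integrin Itga6 was at 56.7, 58.6 and 135 CPM. Its ratio of 2.30 (1.19 to 4.99) had an interval above 1, but the gene stayed just under 2-fold with 20 CPM added. Dst, the plakin that links hemidesmosomes to keratin, and the β1 integrin Itgb1 were present at every stage, at 233, 252 and 321 CPM and at 357, 375 and 388 CPM. Col7a1, the collagen of anchoring fibrils, was at 5.67, 117 and 142 CPM with an E15.5 to E14.5 ratio of 1.21 (0.736 to 2.08), and the laminin chain Lama5 at 28.4, 52.8 and 65.8 CPM. Fras1, a basement membrane protein of embryonic epithelia, ran the other way between the later stages, at 136, 498 and 282 CPM, a ratio of 0.566 (0.433 to 0.743).

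Several desmosome genes had their highest levels at E15.5. Desmosomes rivet neighbouring cells together, through cadherins outside and plakins that hold keratin inside. Dsp, the desmoplakin that ties keratin to the junction, had 19, 61 and 404 UMIs in 8, 33 and 121 members, or 108, 358 and 682 CPM. The interval at each stage lay above the one before, and E15.5 was 1.91-fold above E14.5 (1.45 to 2.54). Dsg3, a desmosomal cadherin of basal stratified layers, was at 11.3, 82.1 and 209 CPM, a ratio of 2.55 (1.46 to 4.80). It was the one gene of the 12 measured in this list of 15 past 2-fold, and the list's median was 0.44, with 9 of 12 ratios above 0. Dsg3 without the 2 deepest E14.5 members had a ratio of 2.04 (1.17 to 3.85), under 2-fold with 20 CPM added, none of 13 genes was past 2-fold and the median was 0.19. Pkp1 and Perp, a desmosomal plaque protein and a membrane protein of desmosomes, were at 88.0 and 162 CPM and at 152 and 211 CPM at E14.5 and E15.5. The cadherins of adherens junctions, Cdh1 and Cdh3, gave 188 and 174 CPM and 123 and 106 CPM, values with overlapping intervals. In the tight junction list 1 of 4 measured genes was past 2-fold, the scaffold Tjp1 at 99.7 and 231 CPM, and 46 of its 137 UMIs at E15.5 lay in 1 barcode. Tjp1 too was under 2-fold without the 2 deepest E14.5 members. The median of that list was -0.28, with 1 of 4 ratios above 0, and it came out marginally positive in 1 of the 14 alternative settings run. The 14 include leaving out the deepest E13.5 barcode, which could not change a comparison of the later stages. The desmosome median (0.17 to 0.56) stayed above 0, and the anchorage median (-0.03 to 0.43) did so in all but the one already given.

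Differentiation genes had the most members past 2-fold of the epithelial lists. Of 31 stratification and suprabasal genes 16 were measured, 6 were at least 2-fold higher and 1 at least 2-fold lower at E15.5, against 3.34% and 3.54% of all genes, and the median log2 ratio was 0.57 (0.40 to 0.72 over the alternatives). Krtdap, a secreted protein of differentiating keratinocytes, had 0, 63 and 648 UMIs in 0, 15 and 88 members, or 0, 369 and 1094 CPM. E15.5 was 2.96-fold above E14.5 (2.28 to 3.90). With 242 of the 648 UMIs in 1 barcode, a large share of the sum came from a single cell, and after thinning 44.3% of E15.5 members (35.1 to 53.9) and 19.4% of E14.5 members (8.19 to 36.0) had a UMI. Endothelial and myeloid barcodes had one in 3.10% and 0%. Unthinned, the members' shares were 53.3% and 34.1%.

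Lgals7, a galectin of stratified epithelia, was at 11.3, 123 and 375 CPM in 2, 13 and 73 members. Ly6d, a surface protein of differentiating keratinocytes, had 0, 3 and 98 UMIs in 0, 3 and 24 members. Krt1, the keratin of cornifying layers, had 0, 3 and 209 UMIs, and 96 of the 209 came from 1 of 15 barcodes. Its mucosal counterpart Krt4 had 1, 7 and 116 UMIs, with 93 of the 116 in 1 of 12 barcodes. The sums of these keratins thus came from fewer cells than those of Krtdap and Lgals7. Krt10, listed with Krt1, was at 45.4, 70.4 and 43.9 CPM in members and at 46.6, 39.1 and 33.1 CPM in all other barcodes, a small difference between them. The late envelope genes Ivl and Lor had no UMI in any member. Sprr1a, another envelope precursor, was the gene past 2-fold in the other direction, at 82.1 CPM in 6 members of E14.5 and 21.9 CPM in 6 of E15.5.

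Periderm is the flat surface layer that shields the embryonic mouth before fusion. In the list of periderm genes and envelope plakins 5 of 12 were measured, none was past 2-fold between the later stages, and the median was 0.40. Krt17, a keratin of periderm and of activated epithelium, was at 68.1, 311 and 229.6 CPM. Grhl3, a factor of periderm, had 3, 1 and 14 UMIs, too few for a comparison.

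**Figure D3:**
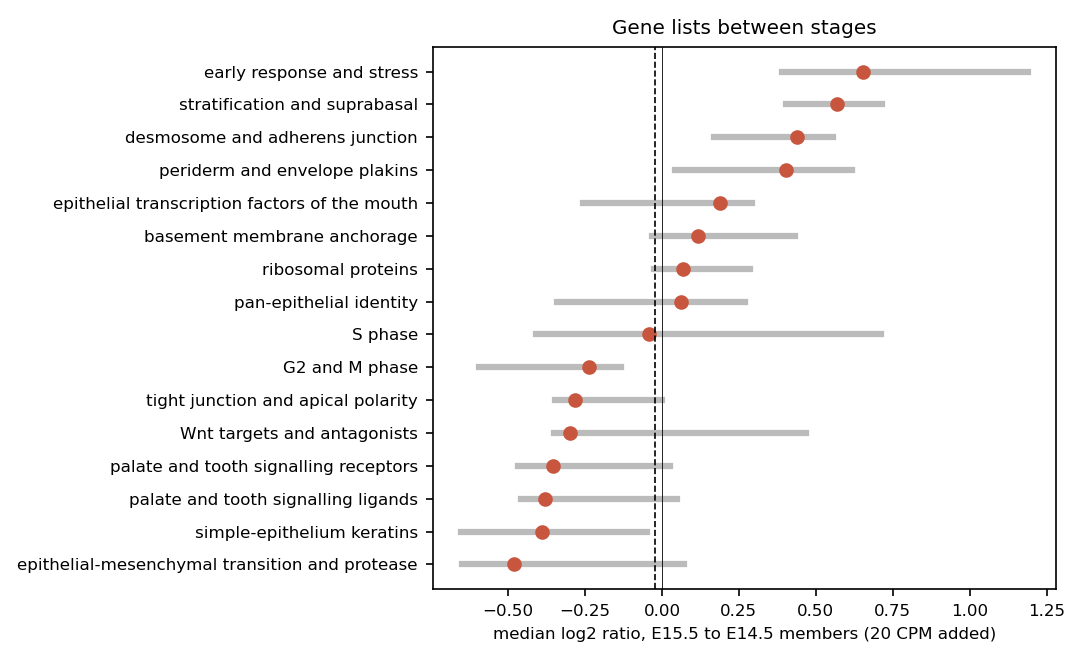
Median log2 ratio of E15.5 to E14.5 members (x axis, 20 CPM added) for 16 gene lists (y axis), with the lowest and highest median over the 14 alternative settings as grey bars and the median of all genes as a dashed line. The stratification list, at 0.57, and the desmosome list, at 0.44, stay above 0 throughout, and bars that cross 0 mark lists whose direction depends on the setting.

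In a list of 24 transcription factors of the mouth epithelium 10 were measured, 1 was higher and 1 lower at E15.5 past 2-fold, and the median was 0.19, negative in 3 of 14 alternatives. The higher one was Tfap2c, an AP-2 factor of ectoderm, at 5.86 and 50.6 CPM from 1 and 30 UMIs. Pitx1, a factor of the oral region, gave 68.1, 82.1 and 133 CPM. Bcl11b, a zinc-finger factor of ectoderm, was at 323, 258 and 407 CPM, and in 37.4% of thinned E15.5 members against 23.1% of the other epithelial and 2.33% of endothelial and myeloid barcodes (57.0%, 31.1% and 8.59% unthinned). The thinned intervals of the members (28.5 to 46.9) and the other epithelium (15.8 to 31.8) overlapped. The lower one was Pax9, a factor of pharyngeal and palatal tissue, at 45.4, 170.1 and 57.4 CPM, with 29 UMIs in 12 members at E14.5 and 34 UMIs in 25 at E15.5. That was a ratio of 0.338 (0.1996 to 0.574). When the 2 deepest E14.5 members were left out, Pax9 was at 117 CPM there, a ratio of 0.490 (0.263 to 0.951) that was under 2-fold with 20 CPM added, and the list's median was -0.19.

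Among receptors, those for fibroblast and epidermal growth factors were both seen in many members. Fgfr2, whose epithelial form receives signals from the mesenchyme, was at 153, 539 and 596 CPM, in 9, 32 and 113 members. Egfr, the epidermal growth factor receptor, was at 96.4, 258 and 317 CPM. Their E15.5 to E14.5 ratios of 1.11 (0.876 to 1.41) and 1.23 (0.882 to 1.75) had intervals that include no difference. The Hedgehog receptor and target Ptch1 and the BMP receptor Bmpr1b were lower at E15.5, at 194 and 91.2 CPM and at 164 and 76.0 CPM. Their ratios were 0.471 (0.300 to 0.750) and 0.463 (0.282 to 0.770). Of 24 receptors 19 were measured, none was higher and 1 was lower past 2-fold, and the median was -0.36, positive in 1 of 14 alternatives. The lower one was Pdgfra, a receptor of mesenchymal cells, at 123 and 37.1 CPM. Without the 2 deepest E14.5 members it was at 36.6 CPM at E14.5, so no receptor was then past 2-fold, and the list's median was -0.12.

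Among ligands, Eda, the ectodysplasin that drives the formation of teeth and other ectodermal organs, was at 73.7, 487 and 351 CPM, in 7, 22 and 75 members. In all other barcodes it was at 58.6, 254 and 309 CPM, so it was also present outside the members. The receptor Edar had 0, 1 and 9 UMIs. Pdgfa, a growth factor that epithelium sends to mesenchyme, was at 125, 211 and 225 CPM. Jag2, a Notch ligand of oral epithelium, gave 39.7, 82.1 and 55.7 CPM. Shh had 0, 0 and 6 UMIs and Tgfb3, the factor of the fusing medial edge, 2, 3 and 8, so at this depth neither could be compared. None of 8 measured ligands of 24 was past 2-fold between the later stages, and the median was -0.38, positive in 1 of 14 alternatives. Nrg1, a ligand of ErbB receptors picked after its values were seen, was past 2-fold higher (log2 ratio 1.17) once the 2 deepest E14.5 members were left out.

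Wnt genes were mostly near the detection limit. The ligand Wnt4 was at 34.0, 106 and 149 CPM in 4, 13 and 64 members, and Wnt6 had 0, 9 and 16 UMIs. Wnt10a had 0, 1 and 7 UMIs. Of 13 Wnt ligands 3 were measured between the later stages, with 1 ratio above 0 and a median of -0.63 that turned positive in 3 of 14 alternatives. Among targets and antagonists, Lgr4, a receptor for R-spondins, was at 108, 352 and 284 CPM, and Znrf3, a ligase that removes Wnt receptors, at 153, 170.1 and 270.1 CPM. Sostdc1, a secreted antagonist of BMP and Wnt signals, was at 56.7, 64.5 and 135 CPM, a ratio of 2.09 between E15.5 and E14.5 (1.11 to 4.36). Sfrp1, another secreted antagonist, was lower, at 142, 141 and 64.1 CPM. The target Axin2 had 1, 5 and 7 UMIs, Lef1 had 7, 5 and 25, and Sost had none. Of 23 targets and antagonists 8 were measured and none was past 2-fold, with a median of -0.30 that turned positive in 5 of 14 alternatives. With those 2 E14.5 members left out Sostdc1 was past 2-fold, with a ratio of 2.64 (1.22 to 6.77), and the interval of Sfrp1 (0.332 to 1.25) included no difference.

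Genes of proliferation and of mesenchymal transition had medians near or below 0 between the later stages, and some stress genes were higher at E15.5 than at E14.5. For the G2 and M phase list 11 of 18 genes were measured, none was past 2-fold between the later stages and the median was -0.24 (-0.60 to -0.13 over the alternatives), and with the 2 deepest E14.5 members left out 1 of 12 was lower. For S phase the median was -0.04 over 8 of 15, none past 2-fold, and it turned positive in 7 of 14 alternatives. With the 2 deepest E14.5 members left out 1 of 8, Mcm4 with 3 UMIs at E14.5, was past 2-fold higher, against 196 of all 5023 genes. In the list of mesenchymal-transition factors and proteases 10 of 17 were measured, none past 2-fold, with a median of -0.48 (-0.65 to 0.07). The positive value is that without the 2 deepest E14.5 members. The summed level of 9 mesenchymal markers was 4139.9 and 2134 CPM at E14.5 and E15.5 with all members, and 1792 CPM at E14.5 without those 2, so its direction rests on them. Of 11 measured early response and stress genes 4 (Hspa1b, Hspa1a, Fosb and Atf3) were past 2-fold higher than at E14.5, with a median of 0.65 (0.39 to 1.19), against 3.34% of all genes and a median of -0.02. Against E13.5 the same list had a median of -0.45 at E15.5. Hspa1b, a heat-shock chaperone with the near-identical copy Hspa1a, had 1, 3 and 68 UMIs, and Fosb, an immediate early factor, 6, 5 and 51. The summed level of the 16 stress genes was 2711, 1267 and 1686 CPM in members, and 2779, 2261 and 3122 CPM in all other barcodes. That list was thus higher at E15.5 than at E14.5 in the rest of the library too, and its part in the other stage differences was not tested.

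Across all genes of at least 200 CPM in either of the later stages, 28 of 1060 (2.64%) were at least 2-fold higher at E15.5 and 35 (3.3%) at least 2-fold lower. Without the 2 deepest E14.5 members 29 were higher and 14 lower, of 1047, or 67.4% of those called higher against 44.4%. The 6 genes with the largest positive ratios were Cstdc5, Bpifa1, Krt13, Krt1, Rbfox1 and Sema4d. Cstdc5, a stefin-like cysteine protease inhibitor of a cluster of close copies, among which UMIs could be split, had 0, 0 and 428 UMIs in 28 E15.5 members, at least 41.1-fold above E14.5 with 3 UMIs set as the floor per stage, and 208 of the UMIs were in 1 barcode. Bpifa1, a secreted protein of nasal and airway surface cells, had 288 UMIs in 3 members, 196 of them in 1. Rbfox1, a neuronal splicing factor, had 190, of which 185 lay in 1 barcode. For Sema4d, a semaphorin, 131 of 153 lay in 1. Most UMIs of Bpifa1, Rbfox1 and Sema4d thus belonged to single cells. The ratio of Rbfox1 turned to -0.16 without its richest member, and that of Sema4d to -0.67 with membership after thinning. By contrast, Krt13 and Cstdc5 were spread over more members.

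Several of the 6 genes with the largest negative ratios also drew most of their UMIs from single barcodes at E14.5. Zfp804b had 93 UMIs at E14.5, of which 64 were in 1 barcode, and 34 at E15.5, and its log2 ratio turned to 0.21 with membership after thinning. For Unc5d, a netrin receptor, 54 of 86 were in 1, and for Adamts6, a matrix protease, 21 of 35. Epha3, an ephrin receptor, had 34 of 96 in 1 barcode, Plpp3, a lipid phosphatase, 17 of 59 and Il1rapl1, a synaptic protein, 12 of 43. Without the 2 deepest E14.5 members Adamts6 and Epha3 were under 2-fold, with log2 ratios of -0.86 and -0.87, and Unc5d, Plpp3, Zfp804b and Il1rapl1 lay between -2.01 and -1.54. When each gene was summed without its richest member in each library, 19 genes were at least 2-fold higher and 11 lower, of 859, or 63.3% higher. That setting also moved the median of all genes of at least 200 CPM from -0.02 to 0.13. Requiring a UMI of Epcam or Cdh1 gave 34 higher and 26 lower. Genes spread over more members included Ndufa4l2, a mitochondrial protein, which against E13.5 was among the largest differences: it had 2, 21 and 230 UMIs in 68 members of E15.5, 3.15-fold above E14.5 (2.01 to 5.19).

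Comparisons with E13.5 were limited by its 15 barcodes. Of 1204 genes of at least 200 CPM, 122 (10.1%) were at least 2-fold higher and 121 (10%) lower at E15.5. Against E14.5, 123 (10.1%) of 1217 were higher at E14.5 and 121 (9.94%) lower. The 12 genes furthest below E13.5 at E15.5 included Nrxn3, Gpm6a, Gad2, Erbb4, Dcc and Tuba1a. Nrxn3 was at 3295, 52.8 and 76.0 CPM in members and 1549.9, 73.6 and 224 CPM in the other epithelial barcodes. In the E13.5 members its UMIs came from 7 barcodes. Among the 8 members of E13.5 with neuronal markers under 0.1%, 5 of the 12 genes (Nrxn3, Erbb4, Sorbs2, Dcc and B3galt1) were higher at E15.5 instead. These 5 were also higher at E15.5 with at least 3 rule genes and with membership after thinning. The neuronal filter took out barcodes with 309, 96, 64, 56, 49 and 6 UMIs of Nrxn3, nearly all it had at E13.5. For Nrxn3 the turn is thus built into the filter. Without the deepest barcode 152 genes were higher and 121 lower. Summing each gene without its richest member gave 278 higher and 20 lower, but it also moved the median of all genes from -0.11 to 0.71, so nothing is read from that count.

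The anchorage, desmosome and stratification lists had higher medians at E15.5 than at E13.5 in each of the 14 alternatives run. They were among 6 of 17 lists that kept their direction against E13.5, while 11 turned in at least 1 alternative, such as the pan-epithelial (-1.46 to 1.44) and periderm (-1.13 to 1.58) lists. The anchorage list had 10 of 14 measured genes at least 2-fold higher and a median of 1.41, the desmosome list 10 of 12 and 2.03, and the stratification list 12 of 13 and 1.99. None of these had a gene 2-fold lower. Over the 5142 genes of at least 50 CPM, 8.56% were higher, 8.01% lower and the median was -0.08. Some markers of other cell types were higher too, 5 of 8 mesenchymal, 4 of 5 erythroid and 3 of 3 nasal ones, with medians of 1.34, 1.86 and 3.15. Others, such as neuronal, neural progenitor and chondrogenic markers, had lower medians, of -1.91, -1.81 and -1.08. With membership read after thinning to 1500 UMIs, which left 4 members at E13.5, the medians were 0.30 for anchorage and 0.52 for desmosomes. Against a floor of 3 UMIs at E13.5, where none was seen, the E15.5 level of Krtdap was at least 64.3-fold higher. For Krt13 the bound was at least 40.4-fold, and for Krt1 it was at least 20.7-fold.

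A suprabasal range was read within the members, as barcodes with a UMI of at least 2 of 9 differentiation genes (Krt4, Krt1, Krt10, Krtdap, Sbsn, Dmkn, Lypd3, Ly6d and Calml3). This is a range along a programme, not a cell type. It held 1 of 15 members at E13.5, the deepest barcode, 13 of 44 at E14.5 (29.5%, 16.8 to 45.2) and 49 of 165 at E15.5 (29.7%, 22.8 to 37.3). Members with exactly 1 of the genes, just under the line, numbered 5, 9 and 60. After thinning to 1500 UMIs the shares were 0 of 14, 6 of 36 (16.7%) and 19 of 115 (16.5%). With at least 1 of the 9 genes asked for, the E14.5 and E15.5 shares were 50% and 66.1%. The exact intervals of the later stages overlapped at each cut tried. At E15.5 the suprabasal members were deeper, with a median of 3227 UMIs against 1898.

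The levels of other genes within and outside the range are given as a description, since the genes were chosen after their values were seen, and Krt13, Krt6a and the basal keratins also chose the members. Krt13 had 345 UMIs in 25 of the 49 suprabasal members and 62 in 20 of the 116 others, or 1381 and 181 CPM. The ratio was 7.63 (5.81 to 10.2). Krt6a was at 540.3 and 111 CPM, Cstdc5 at 1613 and 73.0 CPM, and Fabp5, a fatty-acid carrier of keratinocytes, at 1473 and 342 CPM. Lgals7 was at 596 and 213 CPM, and Dsg1a, the desmosomal cadherin of upper layers, at 136 and 14.6 CPM. The barcode richest in each gene held 109 of 345 UMIs of Krt13, 208 of 403 of Cstdc5 and 10 of 34 of Dsg1a.

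Several basal genes had lower levels in the suprabasal members. Trp63, also a rule gene, was at 200.1 CPM in suprabasal members and 356 CPM in the others, a ratio of 0.562 (0.396 to 0.787). Col17a1 was at 148 and 266 CPM, Lamb3, a laminin chain, at 36.0 and 117 CPM, and Igfbp5, a binding protein for insulin-like growth factors, at 440.3 and 826 CPM. The keratins Krt5 (1269 and 893 CPM), Krt15 (1225 and 934 CPM) and Krt14 (512 and 444 CPM) were not lower in the suprabasal members at E15.5. At E14.5 Trp63 was at 185 and 340.4 CPM, a ratio of 0.544 (0.258 to 1.07). Krt15 was lower there, at 417 and 699.8 CPM (0.595, 0.368 to 0.937), unlike at E15.5. Krt6a had 23 UMIs in the 13 suprabasal members of E14.5 and 2 in the 31 others, and Krt13 had 2 and 1. The deepest of those 13, at 19487 UMIs, held 30.1% of their UMIs. Without it Trp63 was at 265 CPM and Krt15 at 596 CPM in the other 12, against the same 340.4 and 699.8 CPM in the 31 others. Both gaps were smaller than with it, and no interval was computed without it. The lower Krt15 at E14.5 thus rested in part on that barcode.

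The stratification list holds all 9 genes that define the range, so it was read without them, a choice made after seeing the data. Of its other 22 genes 8 were measured at E15.5, 2 were at least 2-fold higher in suprabasal members and none lower, with a median of 0.63. In the desmosome list 2 of 14 were higher and the median was 0.46, and in the anchorage list 2 of 14 were lower and the median was -0.45. Of all 4778 genes 3.18% were higher and 3.5% lower, with a median of -0.01. At 200 CPM 42 of 1081 genes (3.89%) were higher and 21 (1.94%) lower. The deepest suprabasal barcode, at 32420 UMIs, carried 185 UMIs of Rbfox1 and 133 of Kirrel3 beside 44 of the rule genes, and neuronal markers at 0.345% of its UMIs. Without it 31 genes were higher and 49 lower, of 1079, and the desmosome and anchorage medians were 0.58 and -0.56. At 50 CPM 137 of 4833 genes were then higher and 259 lower, with a median of -0.02. At E14.5, 3 of 9 measured stratification genes outside the 9 were higher, with a median of 0.43. In the desmosome list 2 of 12 were higher and 2 lower, with a median of 0.26, and 7 of 15 anchorage genes were lower with a median of -0.74. Without the deepest suprabasal barcode of that stage 4 of 9 stratification genes were higher with a median of 0.52, 3 of 13 desmosome genes were higher and 2 lower with 0.58, and 7 of 15 anchorage genes were lower with -0.91. Of 9 mesenchymal markers 5 were lower there too, with a median of -1.03, and their part in the anchorage values was not tested. With all 13 in, 11.4% of all genes were higher and 16.8% lower, with a median of -0.10. Without the deepest barcode 681 of 5125 genes were higher and 1053 lower, with a median of -0.15.

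**Figure D4:**
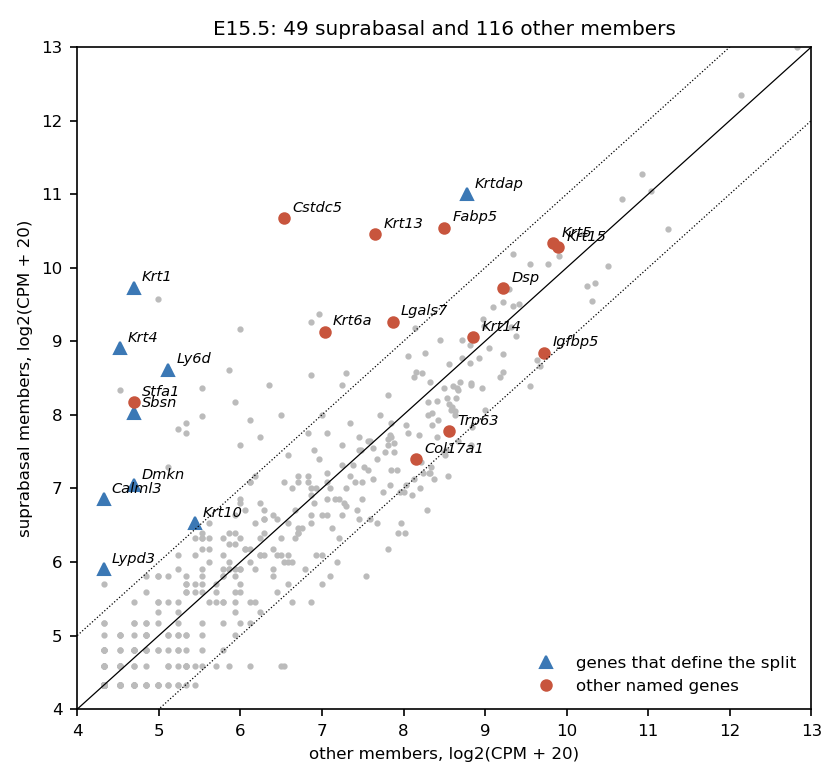
Each point is a listed or named gene or a gene far apart between the groups, with its level as log2(CPM + 20) in the 116 other members (x axis) and in the 49 suprabasal members (y axis) of E15.5, and dotted lines mark 2-fold. Krt13, Cstdc5, Fabp5 and Krt6a lie above with the defining genes (triangles), Trp63, Col17a1 and Igfbp5 lie below the diagonal, and Krt14 lies near it.

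Other epithelial barcodes, those without 2 rule genes but with a UMI of at least 2 of Epcam, Cdh1, Krt8, Krt18, Cldn6 and Cldn7, numbered 187, 114 and 148. At the later stages members differed from them in lists of stratified epithelium. At E15.5 the members had 11 of 14 anchorage genes at least 2-fold higher with a median of 1.50, 9 of 12 desmosome genes with 2.06 and 10 of 14 stratification genes with 2.46, and none of these was lower. At E14.5 the counts were 9 of 13, 8 of 11 and 7 of 10, with medians of 1.62, 1.73 and 1.59. Over all genes of at least 50 CPM, 5.43% were higher and 6.82% lower at E15.5, and 6.27% and 6.53% at E14.5, with medians of 0.03 at each stage. At E13.5 none of 4 anchorage genes and none of 3 desmosome genes was 2-fold apart, with medians of 0.29 and 0.12, and 2 of 4 stratification genes were higher, with a median of 0.72. There 1.88% of all genes were higher and 1.35% lower. The rule chose members through this contrast, so nothing is read from the size of these counts.

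Several simple-epithelial genes were lower in the members, and most of those described chose the compared barcodes. Krt18, a keratin of simple epithelia, was at 62.4, 46.9 and 99.6 CPM in members and 235, 265 and 471 CPM in the other epithelial barcodes. Cldn7, a claudin of tight junctions, was at 73.7, 141 and 79.3 CPM against 270.0, 594 and 617 CPM, and Epcam at 204, 323 and 415 CPM against 581, 815 and 802 CPM. These 3 genes helped to choose the compared barcodes. Cldn3, which did not, was at 5.67, 11.7 and 10.1 CPM in members and 38.3, 49.1 and 69.1 CPM in the others. Its member values rest on 1, 2 and 6 UMIs. The list of simple keratins was not uniform at E14.5, where 1 of 3 measured genes was at least 2-fold higher in members and 1 lower, with a median of -0.19. The higher one was Krt19, at 123 CPM against 36.8 CPM.

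Some genes outside the rule were higher in members than in the other epithelium in all 3 libraries. Ccnd2, a cyclin of early cell-cycle entry, was at 641, 885 and 1050.0 CPM in members and 348, 299 and 284 CPM in the other epithelium. Ahnak, a large membrane-scaffold protein, stood at 249.6, 446 and 657 CPM against 81.2, 199 and 189 CPM, and Igfbp5 at 431, 862 and 663 CPM against 198, 272 and 326 CPM. The non-coding imprinted RNA H19 was at 459, 1249 and 1019.6 CPM against 275, 594 and 303 CPM. At least 2-fold in every library and of at least 200 CPM were 2 higher genes (0.26%) and 4 lower genes (0.519%) of 770.

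**Figure D5:**
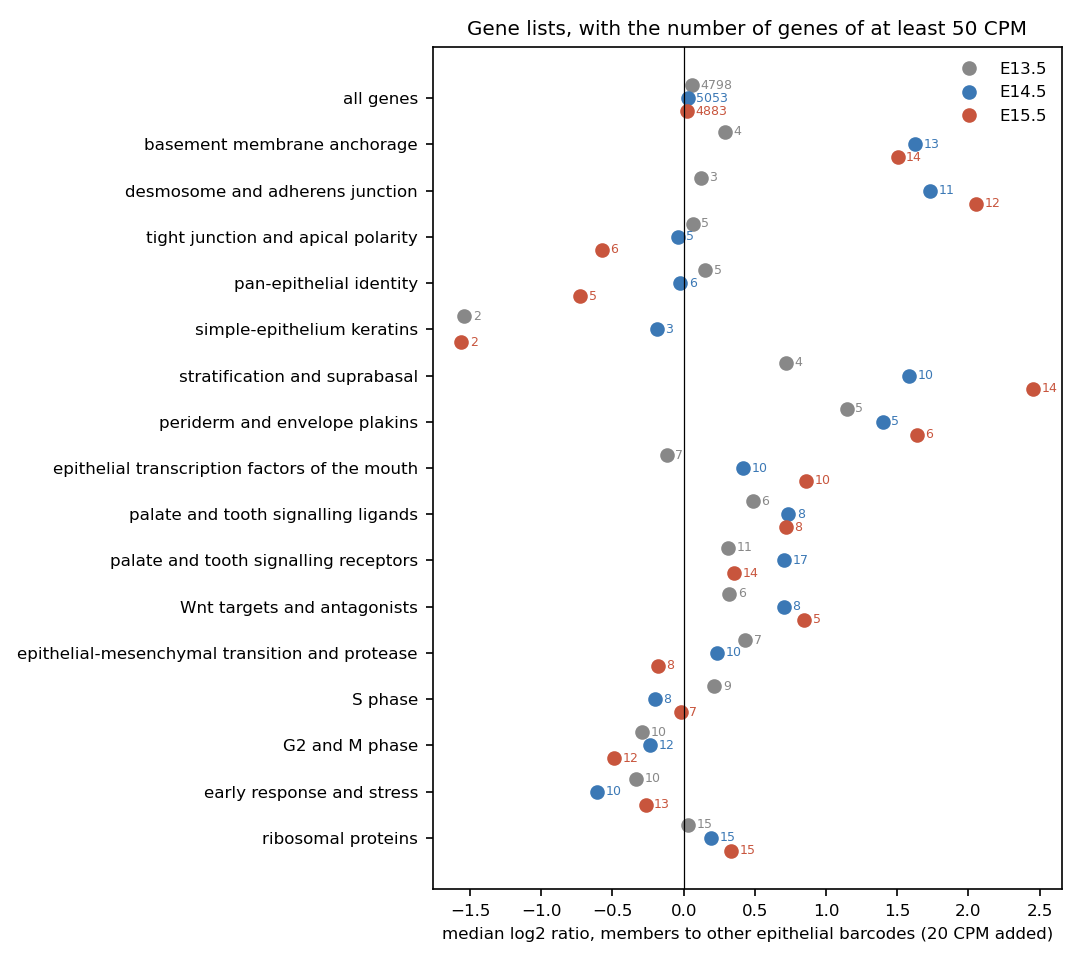
Median log2 ratio of members to other epithelial barcodes (x axis, 20 CPM added) for 16 gene lists and all genes (y axis) in each library, with the number of genes of at least 50 CPM beside each point. The anchorage, desmosome and stratification lists lie at 1.50 or above at the later stages and between 0.12 and 0.72 at E13.5, and the G2 and M phase list lies below 0 at every stage.

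Against all other barcodes the members had higher desmosome and anchorage lists at the later stages. At E15.5, 11 of 12 desmosome genes and 10 of 14 anchorage genes were at least 2-fold higher, with 4.93% of all genes higher and 7.88% lower. At E14.5 the counts were 10 of 11 and 9 of 13, with 4.53% and 4.87%. At E13.5 they were 1 of 3 and 1 of 4, with 1.97% and 1.4%. The tight junction list had 1 of 4 measured genes 2-fold higher at E15.5 against all other barcodes. Against the other epithelium it had none higher and 3 of 6 lower, with a median of -0.57. Its genes Cldn6 and Cldn7 helped to choose those barcodes and the list was not read without them, so nothing is read from this value. Of 750 genes of at least 200 CPM in all 3 libraries, 2 (0.267%) were 2-fold higher and 4 (0.533%) lower throughout.

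Markers of other cell types were checked in the members. The summed level of 9 mesenchymal markers, such as Col1a1 and Col3a1, was 907.5, 4139.9 and 2134 CPM in members, 703, 6915 and 8177 CPM in all other barcodes and 435, 2560.0 and 1804 CPM in the other epithelium, and none of the 9 was at 0. Of these, 5 of the 9 were at least 2-fold lower at E15.5 than at E14.5 in members, against 3.54% of all genes. Without the 2 deepest E14.5 members the E14.5 level was 1792 CPM, below those of the E15.5 members and of the other epithelium, and none of 7 measured markers was past 2-fold. At E13.5 the deepest barcode had these markers at 0.154% of its 75557 UMIs. It thus held most of the 160 UMIs behind the E13.5 level, from which no comparison is read. Col1a1 was seen in 25% and 32.2% of thinned members at E14.5 and E15.5, and in 40.2% and 35.7% of endothelial and myeloid barcodes. Unthinned, the shares were 38.6% and 38.8% in members and 39.9% and 32.3% in those barcodes. The members' share was thus lower than theirs at both stages after thinning, and higher at E15.5 without it. Neuronal markers summed to 2048, 235 and 535 CPM in members and 2832, 677 and 627 CPM in other barcodes, and 0, 4 and 0 of the 10 were at 0.

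The 15 nasal secretory and ciliated markers summed to 17.0, 399 and 798 CPM in members, 33.8, 722 and 1242 CPM in the other epithelium and 13.7, 128 and 254 CPM in all other barcodes, with 12, 7 and 4 of them at 0. They were thus lower in members than in the other epithelium and higher than in all other barcodes. Most of the members' UMIs of these markers at E15.5 were of Bpifa1, and most of those lay in a single barcode, as given above. Endothelial markers were at 17.0, 5.86 and 25.3 CPM with 6, 7 and 4 of 8 at 0, against 35.4, 184 and 179 CPM in all other barcodes and 10.0, 7.36 and 3.07 CPM in the other epithelium. Myeloid markers were at 108, 29.3 and 13.505 CPM with 2, 7 and 4 of 8 at 0, against 58.7, 251 and 326 CPM and 10.0, 34.4 and 6.14 CPM. At E13.5 the myeloid sum was thus higher in members than in both. Haemoglobin and other erythroid genes stood at 1083, 5219 and 4712 CPM in members and at 13780.4, 10042 and 9223 CPM in other barcodes. The part of these signals in the stage differences was not tested.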

How the data were processed

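Single-cell RNA libraries of palatal tissue were made on the 10x Genomics platform, 1 per stage from 3 pooled embryos. The matrices the authors deposited give unnormalized UMI counts, aligned to mm10 with Cell Ranger 6.1.2 per the submitters' processing notes. The filtered matrices held 4236 (E13.5), 2079 (E14.5) and 3113 (E15.5) barcodes with 11472663, 5293977 and 8313677 UMIs in all. Barcodes of at least 500 genes were kept and members found by the rule in the report. Members' counts were summed per library and given as CPM with exact Poisson 95% intervals, shares with exact binomial ones. Log2 ratios were taken after adding 20 CPM, and a gene was called at 2-fold with at least 200 CPM in the higher group, or 50 CPM for gene lists. With 1 library per stage no test between stages exists, and stage cannot be told apart from library. A floor of 3 UMIs replaced 0 in bounds. Shares of cells were read after thinning to 1500 UMIs. Doublets were scored with scrublet at 0.8% per 1000 barcodes, which marked 109, 25 and 56 barcodes, and leaving them out was an alternative.

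The lists, the members and the tests were chosen with earlier results of these data known. Genes are named by a rule: the 6 rule genes, in each list the 3 genes highest and 3 lowest in E15.5 against E13.5, the genes with the largest differences between stages or from other barcodes, and 18 of set interest, some of which are not reported here. Genes outside it, among them Itga6, Itgb4, Fras1, Dsp, Pkp1, Perp, Cdh1, Cdh3, Ly6d, Krt4, Krt10, Sprr1a, Bcl11b, Tfap2c, Pdgfra, Cldn3 and those of the suprabasal range, were chosen after their values were seen. The ratio and thinning code was tested on simulated data. Python 3.11.15, numpy 2.4.6, scipy 1.17.1, pandas 2.3.3 and scanpy 1.11.5 were used. Gene positions come from GENCODE M21 and promoter sequences from RefSeq, both on GRCm38.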

Additional observations from a re-analysis of the deposited data

Results flagged for a closer look

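Barcodes with under 500 genes lay outside the members, yet a few passed the rest of the rule. At E14.5 they were 4 of 304 such barcodes, or 1.32% (exact binomial 95% interval 0.360 to 3.33), with a median of 554 UMIs. They held 12 UMIs of Krt5, 7 of Krt14, 4 each of Krt15, Krt6a and Krt13, and 6 of Dsp. At E15.5 they were 10 of 473, or 2.11% (1.02 to 3.85), with a median of 641 UMIs, 16 UMIs of Krt5, 14 of Krt15 and 6 of Krtdap. At E13.5 they were 0 of 544, for which the exact interval reaches up to 0.676%. They are listed because barcodes that the comparisons did not use held UMIs of the stratified keratins. The E14.5 interval overlaps that of E13.5.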

How the results depend on the processing

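No paired analysis was possible because each stage has 1 library. For the same reason no library could be left out. Over all alternatives, 2378 gene values kept within the spread of counting, 236 moved and 25 reversed, with 271, 6 and 3 for the list medians compared, where a main median under 0.5 was not counted as reversing, 59 and 31 for counts held or moved, and 64 and 38 for shares. Over all 17 lists, 11 medians turned sign in at least 1 alternative between the later stages and 11 against E13.5.

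The member share at E14.5 was 3.45% with at least 1000 genes. The member share at E13.5 and later with at least 3 rule genes was 0.0813%, 1.69% and 4.32%, with a UMI of Epcam or Cdh1 they were 1.58% (E14.5) and 3.90% (E15.5), with membership after thinning 0.170% at E13.5, and with neuronal markers under 0.1% they were 0.217% there. Leaving Krt14 or Trp63 out of the rule gave 0.135% and 0.163% at E13.5, and leaving out Krt5 or Krt15 gave 5.04% and 5.19% at E15.5. The suprabasal share was 40%, 50% and 66.1% with at least 1 gene, 0%, 15.9% and 14.55% with at least 3, and 0%, 16.7% and 16.5% after thinning.

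Counts of genes higher and lower in E15.5 than in E13.5 were 249 and 312 with at least 3 rule genes, 234 and 434 with thinned membership, 256 and 234 at 100 CPM, 735 and 566 with no minimum, and 278 and 20 without each gene's richest member. Size factors gave 75 lower, and neuronal markers under 0.1% gave 189 lower. For E14.5 against E13.5 the counts were 305 and 356, 286 and 503, 277 and 267, 867 and 833, and 243 and 23 in the same order, 75 lower with size factors, and 227 and 276 with neuronal markers under 0.1%. For E15.5 against E14.5 they were 69 and 85 at 100 CPM, 337 and 262 with no minimum, 11 lower without the richest member, and 14 lower without the 2 deepest E14.5 members. The median over all genes of at least 200 CPM for E15.5 against E13.5 was -0.11, 0.06 with size factors and 0.71 without the richest member. The causes were not tested.

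Log2 medians of E15.5 against E13.5 were 0.30 for anchorage and 0.52 for desmosomes with thinned membership, 0.68 and 1.20 with neuronal markers under 0.1%, and 3.48 for stratification with 5 CPM added. Between the later stages the median of Wnt ligands, -0.63 with all members, was 0.37 with thinned membership, 0.12 with no minimum and 0.55 without the richest member, and that of Wnt targets was 0.47 there. Genes that reversed against E13.5 with at least 3 rule genes were Nrxn3 (0.0806), Gpm6a (0.15), Sox2ot (1.72), Pantr1 (0.82), Erbb4 (1.57), Sorbs2 (1.14), Dcc (2.14) and B3galt1 (0.91). With thinned membership they were Trp63 (-0.26), Nrxn3 (2.15), Erbb4 (2.05), Sorbs2 (1.52), Dcc (2.66) and B3galt1 (1.85), and with neuronal markers under 0.1% Nrxn3 (0.66), Erbb4 (1.88), Sorbs2 (1.20), Dcc (2.37) and B3galt1 (0.26). Between the later stages Sema4d (-0.67) and Zfp804b (0.21) reversed with thinned membership, Grik2 (-0.13) and Rbfox1 (-0.13) with neuronal markers under 0.1%, Rbfox1 (-0.16) without the richest member, and Postn (0.16) without the 2 deepest E14.5 members.

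The E13.5 values rest on 15 barcodes, 1 of which holds 42.9% of their UMIs, and at E13.5 and E14.5 1 UMI stands for 5.67 and 5.86 CPM. The alternatives on the richest member, neuronal markers, single rule genes, the deepest barcodes of each stage and the stratification list without the genes that define the suprabasal range were chosen after seeing the data.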
